A study of Homo sapiens with 26 samples.

Results

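In sequential chromatin immunoprecipitation (reChIP), chromatin pulled down with an antibody to the estrogen receptor (ER) is released and pulled down again with an antibody to the progesterone receptor (PR), a procedure meant to recover DNA that carries the 2 receptors together. The reChIP list of T47D cells given estradiol and R5020 was set against the ER list and the PR list of the same cells and treatment. T47D, a human luminal breast cancer cell line, has ER and PR, and is labelled ER+/PR+. The deposited reChIP list held 9861 called sites of 87206 in 10 lists, and all rows were used. Each reChIP site was placed in 1 of 4 classes by whether it shared at least 1 bp with an ER site and with a PR site. All positions are of the hg19 build.

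The reChIP, ER and PR libraries came from T47D cells kept for 48 h in serum stripped of steroids and then given 10 nM estradiol (E2, the main natural estrogen) and 10 nM R5020 (a synthetic progestin) for 45 min. The ER and PR libraries of T47D with 1 hormone and the ER libraries of PR-deficient T47D with E2, R5020 or both gave the 7 other lists. A vehicle library had been subtracted from each list, and for the reChIP list also a control in which IgG took the place of the PR antibody. The labels do not state how PR was depleted in the PR-deficient cells. With a single library behind each list there is no replicate error to set beside a value. No test was made, and the intervals given are exact Clopper-Pearson 95% intervals that cover counting error over sites only.

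ER and PR are nuclear receptors that bind DNA once a steroid occupies them. ER is known to contact DNA mainly at estrogen response elements and PR at progesterone response elements, and either can also be held at a site through other proteins bound there. In luminal breast cancer cells both are known to use enhancers opened by factors such as FOXA1. The PR gene is itself a classical target of ER, and ligand-bound PR is known to associate with ER.

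The reChIP list resembled its partner lists in median site length. Its longest site spanned 12592 bp, against 2067 bp in the ER list and 1674 bp in the PR list. The median site spanned 276 bp in the reChIP list, 209 bp in the ER list of 19220 sites and 292 bp in the PR list of 11908 sites. Read depth was not stated. Within a list the authors' scores were multiples of a common step, 8.66 score units for reChIP, and scores are given here as numbers of steps and compared only within a list. The lowest reChIP score kept was 3 steps, held by 144 sites (1.46%), the median was 6 steps and the highest 124. Of the reChIP sites, 1959 (19.9%) lay on chromosome Y or within 2 Mb of a stretch of at least 3 Mb without a site of any list, against 14.9% of ER sites and 6.72% of PR sites. There were 26 such stretches. The class shares and the shares by score are given with and without them, and other results include them unless stated.

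Most reChIP sites lay at no called site of either receptor. Both receptors were listed at 559 of the 9861 reChIP sites (5.67%, 5.22 to 6.14). A further 1359 sites (13.8%, 13.1 to 14.5) lay at an ER site only and 641 (6.50%, 6.02 to 7.005) at a PR site only. The other 7302 (74.0%, 73.2 to 74.9) lay at neither. An ER site was thus met by 1918 reChIP sites, 19.5%, and a PR site by 1200, 12.2%. Without the sites near long empty stretches and chromosome Y, 6.81% (6.26 to 7.39) of 7902 reChIP sites lay at both, 14.05% at ER only, 7.74% at PR only and 71.4% at neither.

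The overlaps were seldom marginal. The ER site covered a median of 79.1% of the reChIP site it met, and the PR site 88.2%. Only 18 of the 1918 sites that met an ER site did so by 20 bp or less, and 38 sites missed one by that distance. For PR, 10 of 1200 met a site by 20 bp or less and 11 missed one by as little. Of the 559 sites at both receptors, 551 (98.6%) held an ER site and a PR site that also overlapped each other. The class rule favours this, because both had to meet the same reChIP site.

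These shares were read against the other 7 lists, which were placed in the same 4 classes. The ER list was met by 19.5% of reChIP sites, against 9.93% of the 46217 sites of the 7 lists pooled. For the PR list the shares were 12.2% of reChIP sites, against 11.4%, and for both lists 5.67% of reChIP sites, against 3.19%. Single lists came close to or above the reChIP list. The ER list was met by 19.5% (18.2 to 20.7) of ER sites of T47D with E2 and 17.7% (16.7 to 18.8) of those with R5020. For any other list this share was at most 14.8% (13.9 to 15.8). Of the 4014 ER sites with E2, 7.95% (7.13 to 8.83) lay at both an ER and a PR site of the combined treatment, and of the 5338 ER sites with R5020, 4.95% (4.38 to 5.56) did. The PR lists of single hormones gave 2.91% (2.51 to 3.35) with R5020 and 0.980% (0.775 to 1.22) with E2. In PR-deficient cells the ER lists gave 4.64% (4.11 to 5.22) with both hormones, 4.34% (3.90 to 4.82) with E2 and 0.317% (0.213 to 0.455) with R5020.

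This order depended on site length and on the regions kept. The median ER site with E2 spanned 1171 bp, which gives it more room to meet another site. With every site of all lists set to 200 bp around its centre, 5.07% (4.65 to 5.52) of reChIP sites lay at both receptors, against 4.26% (3.66 to 4.93) of ER sites with E2, 4.27% (3.74 to 4.85) of ER sites with R5020 and at most 2.81% (2.39 to 3.27) of any of the other 5 lists. The reChIP interval overlapped those of ER with E2 and with R5020, so their order was not resolved. Leaving out the sites near long empty stretches as well gave 6.10% (5.58 to 6.65) for reChIP, 4.28% (3.66 to 4.96) for ER with E2 and 4.44% (3.86 to 5.08) for ER with R5020. Only then did the reChIP interval lie above both of the others. Leaving out those sites with lengths as listed gave 6.81% (6.26 to 7.39) for reChIP and 7.92% (7.09 to 8.80) for ER with E2, with overlapping intervals. At 200 bp, 10.97% (10.4 to 11.6) of all reChIP sites met a PR site of the combined treatment, less than the 16.3% (15.4 to 17.4) of ER sites with R5020. An ER site was then met by 18.1% (17.4 to 18.9) of reChIP sites. The share was 12.3% (11.3 to 13.3) of ER sites with E2 and 16.8% (15.8 to 17.9) of ER sites with R5020.

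**Figure D1:**
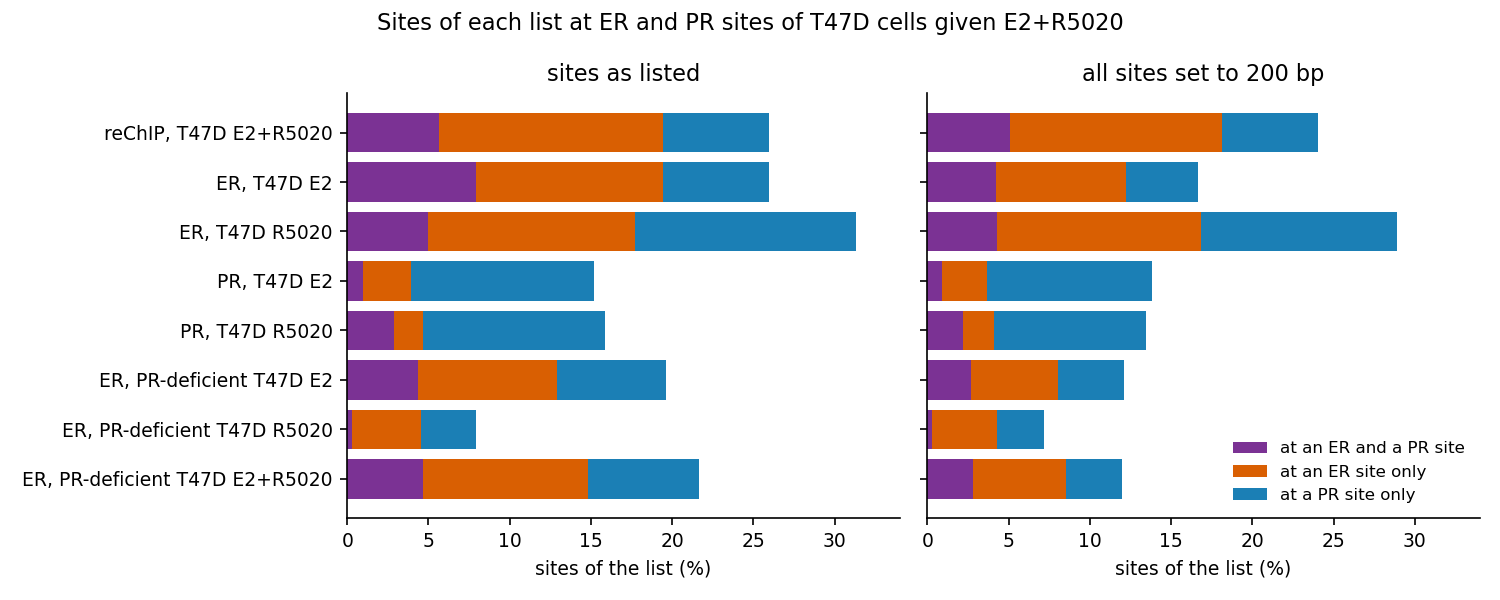
Share of the sites of each list (horizontal axis, percent) that lay at an ER and a PR site, an ER site only or a PR site only of T47D cells given E2+R5020, with sites as listed (left) and all set to 200 bp (right). As listed, the reChIP bar for both receptors (5.67%) is shorter than that of ER with E2 (7.95%). At 200 bp it is the longest of the 8 lists (5.07%), but its interval overlaps those of ER with E2 and with R5020.

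Seen from the receptors' own sites, the reChIP list was far more frequent where ER and PR had been called together. Of the 19220 ER sites, 1977 (10.3%) met a reChIP site, and of the 11908 PR sites, 1157 (9.72%) did. For the 7 other lists pooled the share was 10.6%, but single lists differed widely. ER of PR-deficient cells gave 20.3% with both hormones, 17.02% with E2 and 9.13% with R5020. ER of T47D gave 16.3% with E2 and 8.67% with R5020, and PR of T47D 2.25% and 4.404%. The highest shares were those of the lists with the longest median sites, 1076.5 to 1329 bp. The ER list divided sharply. Of the 992 ER sites that also met a PR site, 558 (56.3%, 53.1 to 59.4) lay at a reChIP site, against 1419 of the 18228 without one (7.78%, 7.40 to 8.18). Of the 961 PR sites that also met an ER site, 541 (56.3%, 53.1 to 59.5) lay at a reChIP site, against 616 of the 10947 without one (5.63%, 5.20 to 6.08).

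This contrast was present at every level of score. ER sites of 16 steps or more with a PR site were at a reChIP site in 78 of 83 cases (94.0%, 86.5 to 98.0), against 198 of 797 (24.8%, 21.9 to 28.0) of those without one. Among ER sites of 4 or 5 steps the shares were 38.4% (27.2 to 50.5) with a PR site, against 5.45% (4.44 to 6.62) without. PR sites of 18 steps or more with an ER site were at a reChIP site in 163 of 192 cases (84.9%, 79.0 to 89.6), against 79 of 157 (50.3%, 42.2 to 58.4) without one. PR sites at the lowest score, 7 steps, gave 40.7% (32.6 to 49.2) with an ER site, against 2.53% (2.08 to 3.04) without.

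Sites with both receptors were also longer, which was checked in the same way. The ER sites of 16 steps or more spanned a median of 679 bp with a PR site and 223 bp without. With all sites set to 200 bp, ER sites of that score lay at a reChIP site in 94.9% (87.5 to 98.6) of cases with a PR site, against 24.6% (21.6 to 27.7) without. PR sites of 18 steps or more then gave 84.0% (78.01 to 88.97) with an ER site, against 48.4% (40.5 to 56.4) without.

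**Figure D2:**
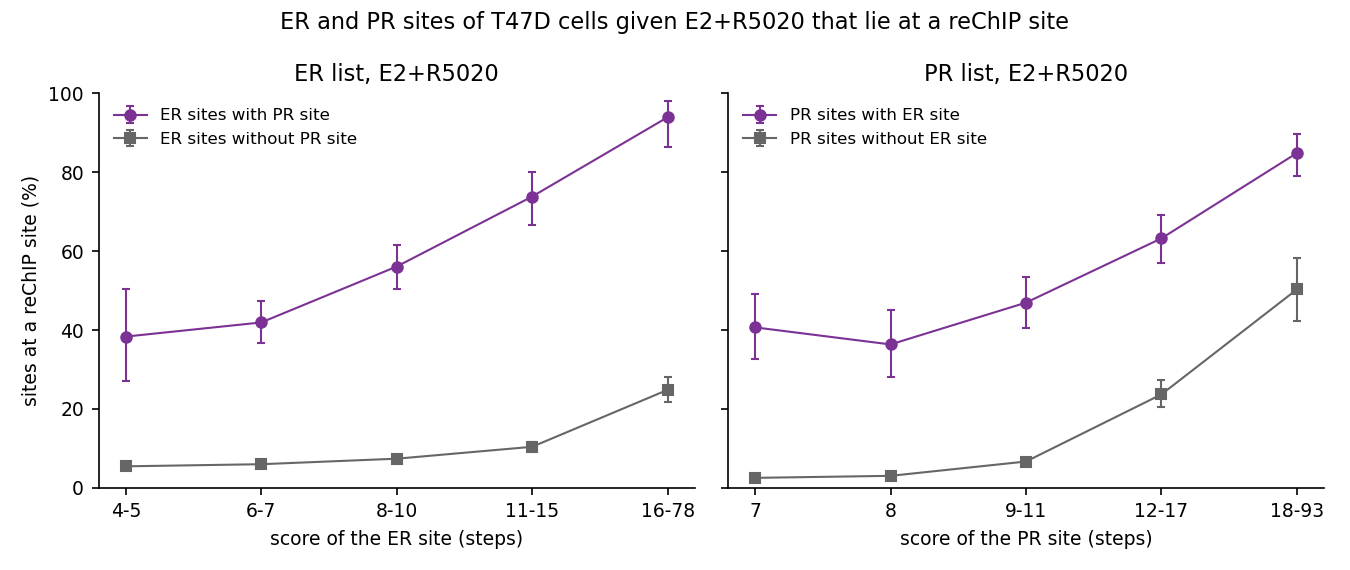
Share of ER sites (left) and PR sites (right) of T47D cells given E2+R5020 that lay at a reChIP site (vertical axis, percent), by the score of the site in steps, for sites with and without a called site of the other receptor; points are shares and bars exact 95% intervals. The share with the other receptor lies above the share without it in every score range, at 94.0% against 24.8% for the highest-scoring ER sites.

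ER sites with a PR site were also listed more often than those without, with intervals that did not overlap in 6 of the 7 other lists, but less often than in the reChIP list. The exception was ER in PR-deficient cells with R5020, at 2.82% (1.88 to 4.05) with a PR site and 2.14% (1.93 to 2.36) without. ER sites with a PR site met the ER list of PR-deficient cells with E2 in 33.97% (31.0 to 37.0) of cases, against 4.16% (3.87 to 4.46) without a PR site, and the T47D ER list of E2 in 32.3% (29.4 to 35.3), against 2.96% (2.72 to 3.21). They met the T47D ER list of R5020 in 26.4% (23.7 to 29.3), against 3.82% (3.54 to 4.11). At 200 bp the share met by the reChIP list was 54.6% (51.3 to 57.8), and the next highest was 24.9% (22.2 to 27.8), for ER of T47D with R5020. The share met by ER of T47D with E2 was then 19.3% (16.8 to 22.0). The lists differ in length and depth, so these shares do not rank the assays.

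The strongest sites at both receptors were high in all 3 lists. The leading one, on chr3:127022731-127023786 (1056 bp), scored 100 steps in the reChIP list, where it ranked 7. It met the highest-scoring ER site, at 127022770 to 127023798, and the highest-scoring PR site, at 127022793 to 127023743, with centres 25.5 and 9.5 bp away. It was also listed for ER and PR with R5020, and in no E2 list or list of PR-deficient cells. The next, on chr7:157413327-157414359, scored 71 steps, ranked 4 in the ER list and 25 in the PR list, and was listed in 6 of the 7 other lists, the PR list of E2 being the exception.

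The remaining leaders of this class were chr2:130671581-130673190, chr10:79631809-79632637 and chr8:66934294-66935256, at 64, 56 and 51 steps. The site on chromosome 10 met the ER site of rank 2 and the PR site of rank 14. The 5 leaders all met the ER list of R5020, and 4 of them met the ER list of PR-deficient cells with E2, the exception being the site on chromosome 3. None lay near a long empty stretch.

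The reChIP site was centred close to the site it met. Only overlapping sites were measured, so their lengths bound this distance, and no expected distance was computed. In the class of both receptors the median distance between centres was 51 bp to the ER site and 56.5 bp to the PR site, and 73.2% and 73.9% of centres lay within 100 bp. The ER centre was the nearer in 300 of 559 sites (53.7%, 49.4 to 57.9) and the PR centre in 257 (46.0%, 41.8 to 50.2), so neither receptor's centre was clearly the nearer. Sites at ER only had a median distance of 47.5 bp and sites at PR only 70.5 bp. The ER sites met in the class of both receptors spanned a median of 443 bp, against 259 bp in the class of ER only, and the PR sites 558 bp, against 440 bp in the class of PR only.

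**Figure D3:**
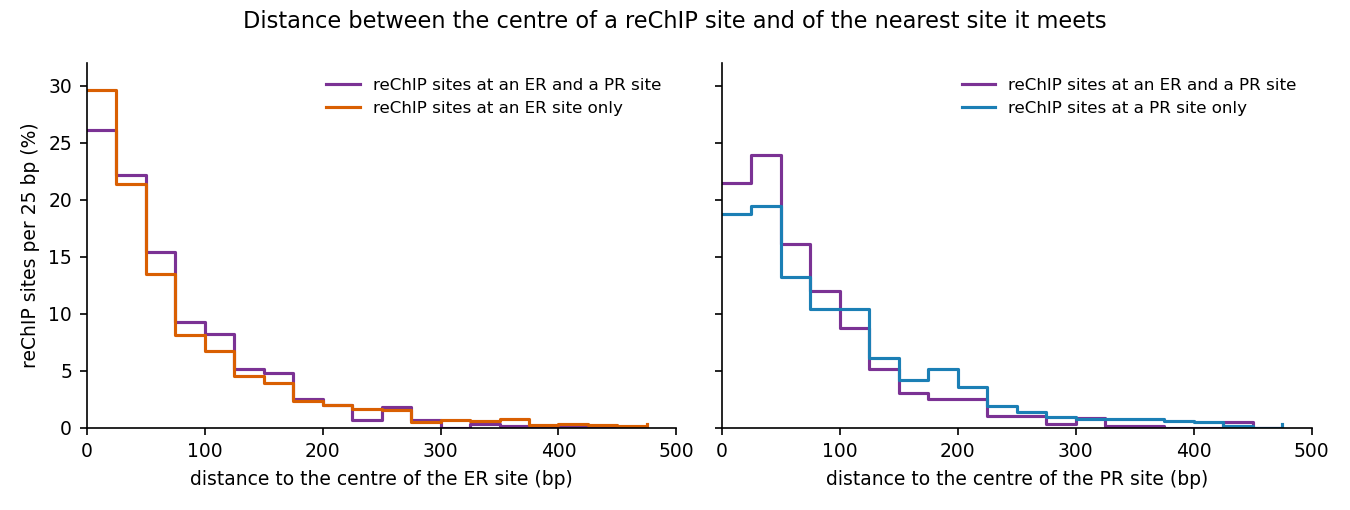
Distance in bp (horizontal axis) between the centre of a reChIP site and the centre of the ER site (left) or PR site (right) it met, as the percent of the class in each 25 bp. In all 4 curves most sites lie within 100 bp, from 62.4% at PR only to 73.9% for PR in the class of both.

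Sites at ER only were led by chr19:39899918-39900715, at 85 steps, which met the ER site of rank 5 and was also listed for ER in T47D with either hormone alone and in PR-deficient cells with E2 and with both hormones. The nearest PR site was 254185 bp from it. The next leaders were chr11:51582567-51583138 and chrY:13868356-13868708, each at 71 steps and near a long empty stretch, whose ER sites ranked only 1562 and 2521 and were offset by 497 and 174.5 bp. They were followed at 66 steps by chr2:24306831-24307777 and chr4:6752440-6753239. The site on chromosome 4 met the ER site of rank 6 and had a PR site 1462 bp away. Of the whole class, 4.49% (3.45 to 5.73) had a PR site within 1000 bp, and the median gap to the nearest PR site was 70568 bp.

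Sites at PR only were led by chr2:11638421-11639175, at 67 steps, and chr12:133042769-133043915, at 63 steps. Then came chr17:38336540-38337561, chr2:100252852-100253813 and chr9:33220918-33221949, at 57, 54 and 53 steps. All 5 were ER sites in PR-deficient cells with E2 and with both hormones, although no ER site of T47D with both hormones was called there. The nearest such ER site lay 61 bp from the site on chromosome 9 and 2127 to 26206 bp from the other 4. Of the whole class, 110 of 641 (17.2%, 14.3 to 20.3) lay at an ER site of T47D with a single hormone, and 270 (42.1%, 38.3 to 46.1) at a site of any of the 5 other ER lists. Of the 1359 sites at ER only, 40 (2.94%, 2.11 to 3.99) lay at a PR site of T47D with a single hormone. These shares are not like for like, because the lists differ in extent. The T47D ER lists covered 5.43 Mb with E2 and 1.51 Mb with R5020, and the PR lists 2.23 and 0.970 Mb. With all 3 ER and 3 PR lists of T47D used to define the classes, a count added after the data were seen, sites at both receptors numbered 715 (7.25%) and sites at neither 6890 (69.9%).

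The 7 lists that did not define the classes separated them. A reChIP site at both receptors was found in at least 1 of the 7 in 75.5% (71.7 to 79.0) of cases, at PR only in 53.5% (49.6 to 57.4), at ER only in 41.2% (38.6 to 43.9) and at neither in 23.3% (22.3 to 24.3). Over all reChIP sites the single lists were met by 15.6% (ER, PR-deficient cells, E2), 13.7% (ER, PR-deficient cells, both hormones), 8.35% (ER, PR-deficient cells, R5020), 7.21% (ER, T47D, E2), 4.75% (ER, T47D, R5020), 2.43% (PR, T47D, R5020) and 1.82% (PR, T47D, E2).

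Sites at both receptors were often ER sites of a single hormone. They met the T47D ER list of E2 in 41.9% (37.7 to 46.1) of cases and that of R5020 in 29.5% (25.8 to 33.5). The median E2 site spanned 1171 bp and the median R5020 site 248 bp. With all 10 lists at 200 bp the shares were 25.2% (21.5 to 29.2) for E2 and 29.0% (25.1 to 33.2) for R5020. These intervals overlapped, so no order was resolved at 200 bp. The order turned with 50% of both sites overlapped, to 7.16% (4.69 to 10.4) for E2 and 29.8% (25.05 to 34.9) for R5020. With sites as listed, 78 of the 559 (13.95%) were ER sites with either hormone alone, 156 (27.9%) with E2 but not R5020 and 87 (15.6%) with R5020 but not E2. The other 238 (42.6%, 38.4 to 46.8) were ER sites with neither hormone alone. For PR, 18.1% (14.96 to 21.5) met the list of R5020 and 4.29% (2.77 to 6.32) that of E2. In cells deficient in PR, 284 of the 559 (50.8%, 46.6 to 55.0) were listed for ER with E2 or with both hormones. With 50% of both sites overlapped the single lists gave less, 22.1% for E2 and 15.8% for both hormones in PR-deficient cells, against 48.7% and 38.998% at 1 bp. For PR of T47D with R5020 the share was then 4.01%. The median sites of these lists spanned 1076.5, 1329 and 149 bp, against 498 bp for this class, which limits such overlap.

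Sites at PR only met the PR lists of single hormones at 11.2% (8.89 to 13.9) with R5020 and 9.83% (7.64 to 12.4) with E2, against 1.32% (0.787 to 2.09) and 1.62% (1.02 to 2.44) of sites at ER only. For sites at PR only the intervals of the 2 hormones overlapped, so no order was resolved. With 50% of both sites overlapped, the shares of sites at PR only were 2.03% (0.977 to 3.70) with R5020 and 3.85% (2.34 to 5.95) with E2. The median PR site spanned 149 bp with R5020 and 249 bp with E2, against 359 bp for this class, which limits such overlap. With all 10 lists at 200 bp the shares were 11.5% and 8.93%. Among the 7 lists, sites at neither stood highest only in the ER list of PR-deficient cells with R5020, which was met by 2.50% (1.38 to 4.17) of sites at both receptors, 4.49% (3.45 to 5.73) at ER only, 5.30% (3.70 to 7.33) at PR only and 9.78% (9.11 to 10.5) at neither. Sites at both receptors also met that list less often than sites at neither under the 9 other settings tried.

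**Figure D4:**
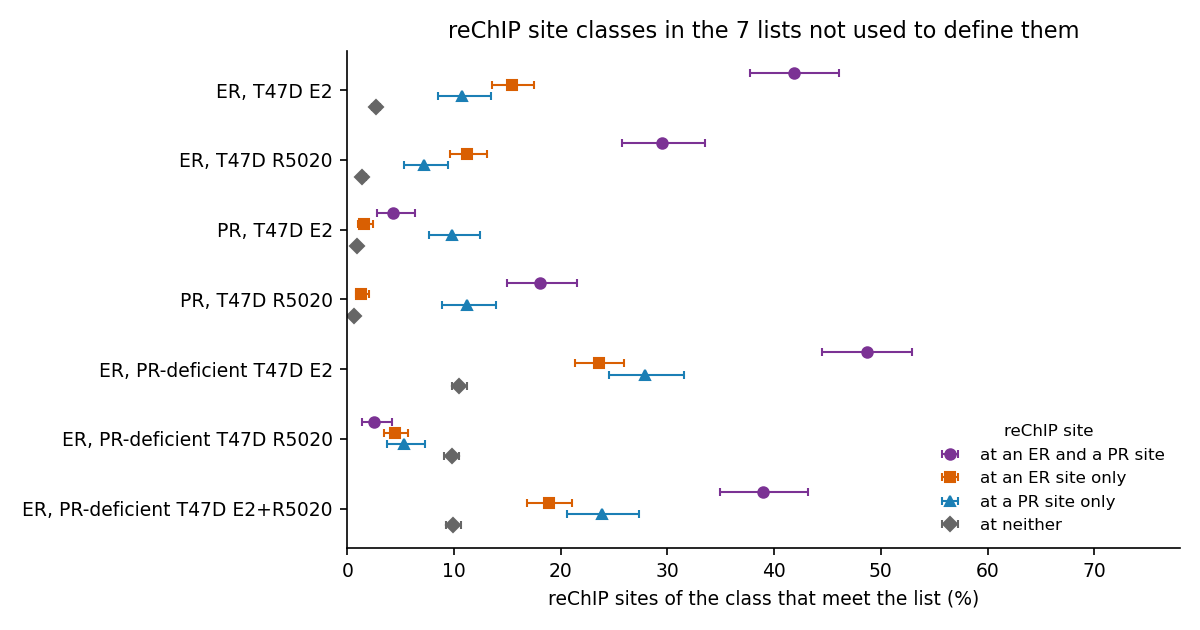
Share of the reChIP sites of each class (horizontal axis, percent) that met each of the 7 lists not used to define the classes; points are shares and bars exact 95% intervals. Sites at both receptors stand highest in 5 of the 7 lists, up to 48.7% for ER in PR-deficient cells with E2, but at 2.50% lie below sites at neither (9.78%) in the list of PR-deficient cells with R5020.

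The score of a reChIP site did not rise steadily with the presence of the receptors. The share at both receptors was 2.62% (1.89 to 3.54) at 3 or 4 steps, 12.1% (10.2 to 14.2) at 10 to 14 steps and 4.52% (2.19 to 8.16) at 40 steps or more, where 86.0% (80.7 to 90.3) of 221 sites lay at neither. Of the 100 highest-scoring reChIP sites, 85 lay at neither, 7 at ER only, 4 at PR only and 4 at both, and 54 lay near a long empty stretch or on chromosome Y. Away from those regions the share at both was 2.53% (1.79 to 3.47) at 3 or 4 steps, 16.6% (14.03 to 19.5) at 10 to 14 steps and 17.1% (13.2 to 21.7) at 20 to 39 steps. In the top range of 40 steps or more it was 11.4% (5.59 to 19.9) of 88 sites.

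**Figure D5:**
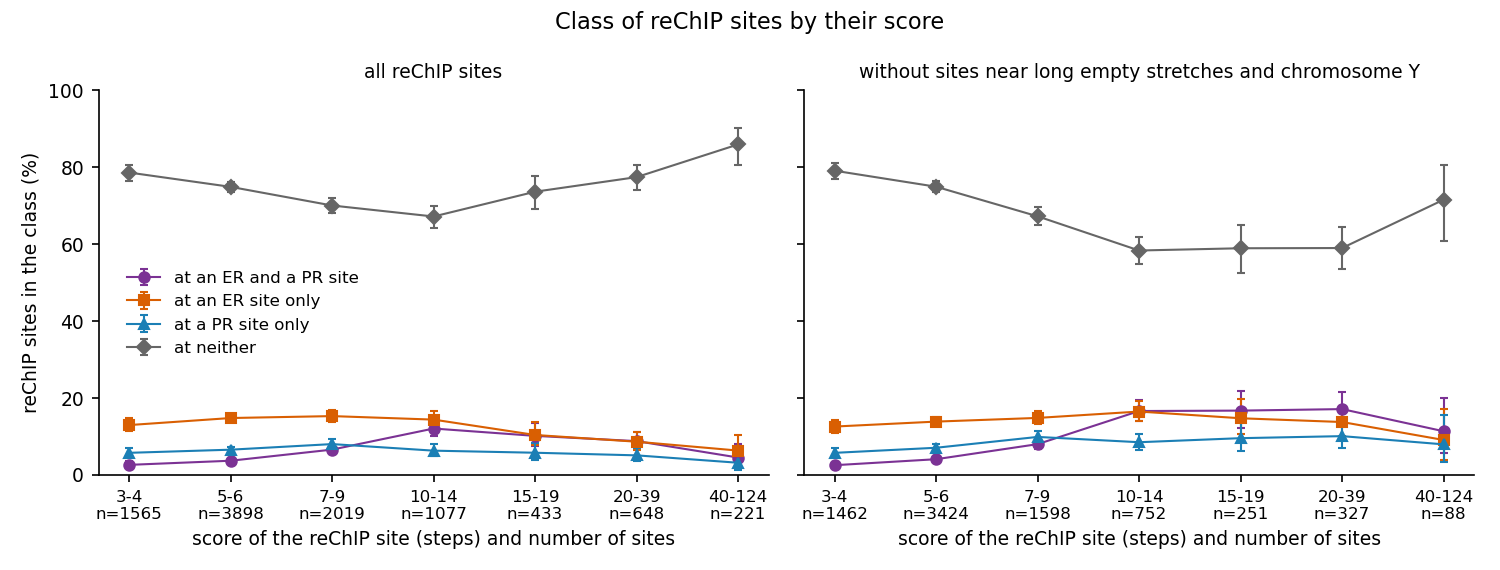
Share of reChIP sites in each class (vertical axis, percent) by the score of the site in steps, for all sites (left) and without those near long empty stretches and on chromosome Y (right); points are shares, bars exact 95% intervals, and n the sites in each range. Sites at neither are the majority in every range, at 67.2% to 86.0% on the left, and the share at both receptors falls in the top ranges on the left more than on the right.

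Longer reChIP sites met the receptors more often, up to a point. The median length was 498 bp for sites at both receptors, 359 bp at PR only, 275 bp at ER only and 262.5 bp at neither. Of 820 sites of 601 to 1000 bp, 20.4% (17.7 to 23.3) lay at both receptors and 50.7% (47.3 to 54.2) at neither. Of 1426 sites of 66 to 150 bp the shares were 0.281% (0.0765 to 0.717) and 80.4% (78.3 to 82.5). Of 265 sites over 1000 bp, 74.3% (68.6 to 79.5) lay at neither.

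High-scoring sites at neither receptor were more often near long empty stretches than the class as a whole. Of the 692 with 20 steps or more, 436 (63.0%, 59.3 to 66.6) lay near such a stretch or on chromosome Y, against 22.7% (21.8 to 23.7) of all 7302. At that score the share was 1.49% of 67 sites at both receptors, 24.3% of 70 at ER only and 0% of 40 at PR only. Over all scores it was 3.76% (2.34 to 5.69) of the sites at both receptors. Another reChIP site lay within 1000 bp of 22.7% of sites at both receptors, 27.6% at ER only, 22.0% at PR only and 36.4% at neither. Much of this difference came from sites near long empty stretches and on chromosome Y. Without them the shares were 22.5% (19.03 to 26.3) at both and 20% (17.7 to 22.5) at ER only. They were 22.1% (18.8 to 25.6) at PR only and 25.2% (24.1 to 26.4) at neither. With all regions kept, the 692 high-scoring sites at neither were more crowded, at 71.0% (67.4 to 74.3). Their leaders were chr1:121484043-121485453, at 124 steps, chr17:80571641-80572738, at 122 steps, chr18:18518302-18520354 and chr3:196625619-196625826, both at 105 steps, and chr9:66970976-66971555, at 103 steps. Those on chromosomes 1, 18 and 9 lay near a long empty stretch. The site on chromosome 17 was an ER site of PR-deficient cells with E2 and with both hormones, and the other 4 were in no other list.

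Few of the unmatched sites lay within 200 bp of a receptor site. Of the 7302, 446 (6.11%, 5.57 to 6.68) had an ER site within 200 bp and 101 (1.38%, 1.13 to 1.68) a PR site. The median gap was 16466.5 bp to the nearest ER site and 35591.5 bp to the nearest PR site. An ER site of T47D with a single hormone was met by 300 (4.11%, 3.66 to 4.59) and such a PR site by 118 (1.62%, 1.34 to 1.93). The ER lists of PR-deficient cells with E2 or both hormones were met by 903 (12.4%, 11.6 to 13.1). That of PR-deficient cells with R5020 was met by 714 (9.78%, 9.11 to 10.5). These counts share sites, and 1700 of the 7302 lay in at least 1 of the 7 lists. The other 5602, which make up 56.8% (55.8 to 57.8) of all reChIP sites, were in none of the 9 other lists. A site of its own was no less common in the single ChIPs of the same treatment, where 79.2% (78.6 to 79.8) of ER sites and 66.6% (65.7 to 67.4) of PR sites were in no other list. The 7 other lists fell on either side. For ER of PR-deficient cells the share was 11.4% with both hormones, 25.1% with E2 and 60.1% with R5020. It was 31.4% for ER of T47D with E2 and 53.7% with R5020, and for PR of T47D 76.3% and 76.0%.

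The classes were spread over all 24 chromosomes in the files. Chromosome 22 had the highest share at a receptor site, with 49.3% of its 211 reChIP sites at ER, PR or both, and the share ran between 18.2% on chromosome X and 35.1% on chromosome 13 elsewhere. Sites at both receptors made up 12.8% of the reChIP sites of chromosome 22, 11.7% of the 94 of chromosome 13 and 9.68% of those of chromosome 17, against 1.68% of chromosome X and 0.671% of chromosome Y.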

How the data were processed

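Called sites of 10 ChIP-seq libraries were analysed. The 26 samples map from their titles to 26 groups of 1 library. The other 16 samples have no list that was analysed here. Per the submitters' processing notes, alignment used Bowtie2, peak calling MACS and the build was hg19. For versions, settings and thresholds, the sources used here give nothing. Vehicle libraries, and for the reChIP an IgG control, had been subtracted, per the labels. Peaks were called per library, not on pooled samples. The reChIP list is named in the descriptions of the vehicle and the treated reChIP samples, for PR and for IgG. It was assigned to the ER-PR complex sample with E2+R5020, whose title its name matches. Each deposited file gives chromosome, start, end, length and score. The score is the authors' own, with no unit stated. Within 0.02, every score was a whole number of steps, whose size is particular to the list. Depth is unknown, and a list's length depends on it.

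Classes came from SciPy 1.17.1, pandas 2.3.3 and NumPy 2.4.6 under Python 3.11.15, and figures with matplotlib 3.10.9. On simulated lists 9861 of 9861 sites were placed in their planted class, and counts equalled those of bedtools 2.31.1. Alternatives were the higher-scoring 50% of the 3 lists, 50% overlap of both sites, centres 200 bp apart or less, ER and PR lists of 9861 sites, sites of 200 bp, and leaving out sites near long empty stretches and chromosome Y. Those added after seeing the data were a reChIP threshold 1 step higher, merging reChIP sites within 500 bp and setting all 10 lists to 200 bp. Named sites were the 5 of highest score in each class, ties ordered by length and position. The site classes and lists were chosen with earlier results of these data known. Since the tables at hand were of another build than hg19, planned searches for genes and motifs were not run, no gene is named and no sequence is printed.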

Additional observations from a re-analysis of the deposited data

How the results depend on the processing

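No paired analysis was possible because every group is a single library, and leaving out a replicate was not possible for the same reason. In the order both, ER only, PR only and neither, the shares of reChIP sites were as follows. They were 3.54, 9.90, 4.999 and 81.6% with 50% of both sites overlapped, 5.09, 13.1, 5.90 and 75.9% with centres within 200 bp, and 5.07, 13.1, 5.90 and 76.0% with sites of 200 bp. They were 4.32, 9.48, 7.41 and 78.8% with lists of equal length. The higher-scoring 50% gave 9.51, 7.51 and 76.9% for the last 3, and merging within 500 bp gave 6.71, 15.9, 7.30 and 70.1%. Leaving out sites near long stretches gave 6.81, 7.74 and 71.4% for both, PR only and neither. Sites at neither were the majority under all 9 settings.

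The shares of ER and of PR sites at a reChIP site were 6.89 and 7.07% with 50% of both sites overlapped, 9.47 and 8.96% with centres within 200 bp, 9.46 and 8.95% at 200 bp, 8.16 and 11.2% with the higher-scoring 50%, and 13.7 and 11.3% with lists of equal length. The last also gave 68.8% for ER sites with a PR site, which lay between 54.6 and 58.3% under the other 8.

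The share of sites at both receptors found in 1 or more of the 7 other lists, followed by that of sites at neither, was 47.6 and 7.76% with 50% of both sites overlapped, 66.1 and 16.6% with centres within 200 bp, 80.9 and 26.0% with the higher-scoring 50%, and 65.8 and 16.6% with all 10 lists at 200 bp. With lists of equal length only the share at both moved, to 79.6%, and the share at neither moved to 26.2% without sites near long stretches and to 25.6% with merging. Raising the reChIP threshold by 1 step moved none of these 9 values beyond its interval. Of 252 further shares, of 1 class in 1 list under 1 setting, 160 stayed within their interval and 92 did not. Depth sets how many sites are called and is unknown, so an unmet site is not shown to lack a receptor.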

Other observations

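The reChIP list was crowded in a few windows. The 15 windows of 1 Mb with the most reChIP sites held 1418 of them. The window of chromosome 4 at 49000000 to 49999999 held 271 reChIP sites, of which 244 lay at neither receptor and 2 at both, with a median score of 15 steps, and it held 63 ER and 44 PR sites. The window of chromosome Y at 13000000 to 13999999 held 175, and that of chromosome 10 at 42000000 to 42999999 held 123 with a median of 20 steps. All sites of these 3 windows lay near a long empty stretch or on chromosome Y. Away from such stretches, the window of chromosome 16 at 85000000 to 85999999 held 128 reChIP sites at a median of 5 steps, 117 at neither, with 23 ER and 88 PR sites. On chromosome 3 at 195000000 to 195999999, 76 reChIP sites, 73 at neither and 0 at both, stood in a window with 162 PR sites and 25 ER sites. Chromosome X at 114000000 to 114999999 held 56 reChIP sites, 55 at neither, the first starting at 114959752 and the last ending at 114999607.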
